A study of Mus musculus with 4 samples.

Results

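The genes described here encode the respiratory chain and the ATP synthase of the mitochondrion, in nuclei of mouse lung cells after bleomycin injury. A name pattern chose the nuclear-encoded group (names of the Nduf, Uqcr, Cox and Atp5 forms), which took 76 of 31053 gene rows under 75 names. Of these, 36 fell in complex I, 8 in complex III, 15 in complex IV and 17 in complex V. The 13 protein genes of the mitochondrial genome, whose names start with mt-, formed the second group. The pattern used names and no measured value, but earlier results of these data were known when the members were chosen. Complex II was outside the pattern, as were some subunits such as Cox4i1 and Cyc1, and these are given below as separate lists.

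Oxidative phosphorylation passes electrons from NADH through complex I, ubiquinone, complex III, cytochrome c and complex IV to oxygen, and the proton gradient built on the way drives ATP synthesis by complex V. Each of these complexes is assembled from nuclear-encoded subunits imported into the organelle and a few subunits made inside it from mitochondrial DNA. Alveolar type 2 (AT2) cells, which make surfactant and divide to replace the flat type 1 (AT1) cells, are rich in mitochondria. In isolated nuclei, mt- transcripts come from outside the nucleus.

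The comparison was between 2 genotypes, with 1 joint RNA and chromatin library of each. The control carried SftpcCreERT2 and Rosa26mTmG, and the CKO carried these and IPF/F. In both, an inducible Cre recombinase is driven from the gene for surfactant protein C, which AT2 cells express, and the reporter turns recombined cells GFP positive. GFP+ cells of male lungs were sorted 8 days after injury with the cytotoxic drug bleomycin, and nuclei were isolated from them. The labels give neither the number of mice behind a library nor their age, and no untreated lung was among the samples. With 1 library per genotype no difference has a replicate check, so no p-value is given, and each 95% interval below covers counting error only.

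Barcodes numbered 13569 in control and 10925 in the library labelled CKO, which had 48378328 and 30818808 UMIs (distinct RNA molecules counted). The mitochondrial share of UMIs set the libraries apart: its median over barcodes was 24.2% in control and 16.6% in the library labelled CKO. Filters left 2185 and 3883 nuclei with a mitochondrial share under 20%, or 7241 and 6509 without that limit. Alveolar epithelial nuclei, set from marker genes, made up 94.4% of kept control nuclei and 62.2% of the others, the rest being mostly leukocytes in spite of the sort. The AT2-like class was made of clusters that each drew mainly on 1 library, 1 with 817 control nuclei and 12 of the other library, 1 with 49 and 1289, and a shallow 1 with 700 and 88. All 12 AT2 markers were detected in AT2-like nuclei of both libraries, at 11294 and 17221 CPM summed (defined below). A single transcript, Gm42418, which overlaps ribosomal RNA sequence, took 13.3% and 6.08% of nuclear-encoded UMIs. The libraries shared 193 barcodes. Ptgir, the gene of the prostaglandin I2 receptor that the series title names, had 2 and 10 UMIs, too few to check either label.

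In alveolar nuclei under the limit, RNA of the nuclear members was more abundant in the library labelled CKO. Summed, they had 1920 CPM (counts per 1000000 nuclear-encoded UMIs) in control and 3023 CPM in the library labelled CKO, a log2 ratio of 0.65 (95% interval 0.62 to 0.69). Of the 71 members with at least 100 UMIs over both libraries, 43 were at least 1.5-fold higher in the library labelled CKO and 0 were that much lower. The same held for 39.0% of all genes tested, with 4.3% lower, so higher values were not particular to the members. The median log2 ratio was 0.66 over the members and 0.45 over all 9403 genes, and 55 of the 71 members were above that gene median. With median-of-ratios scaling, which takes such a shift out, the summed log2 ratio was 0.21 and 6 members were at least 1.5-fold higher. The 5 members below 100 UMIs were the complex IV isoforms Cox6a2, Cox7a1, Cox7b2, Cox8b and Cox8c.

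**Figure D1:**
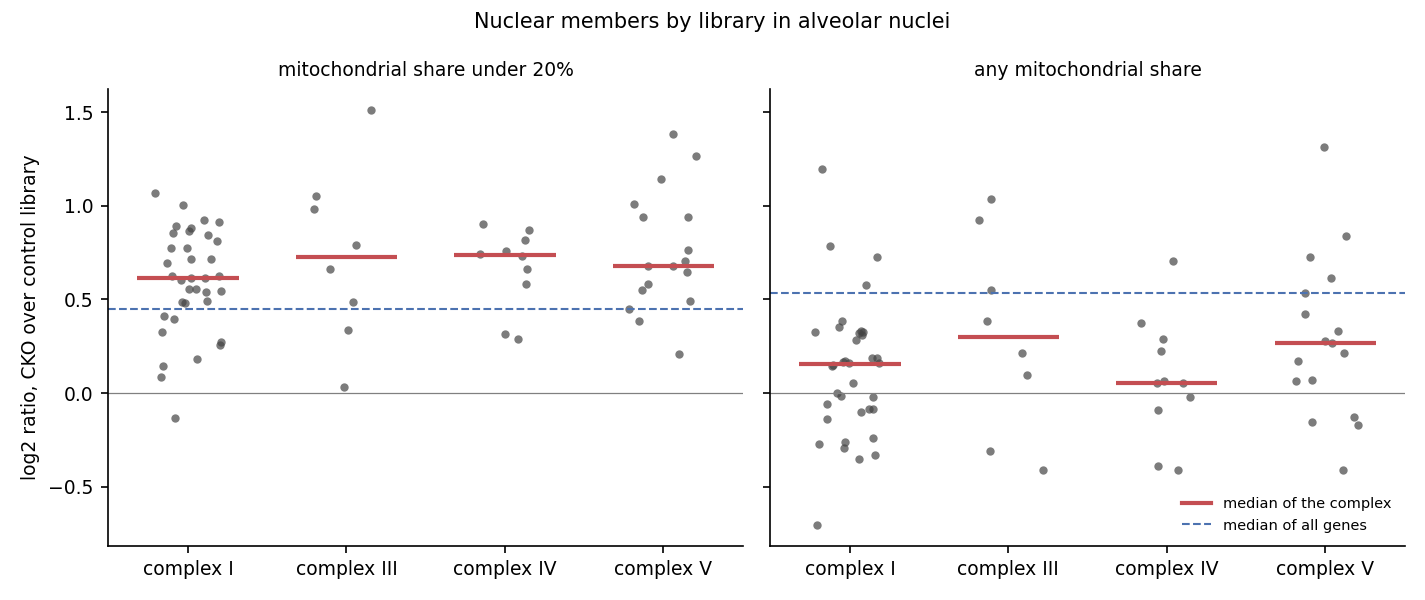
Log2 ratio of each nuclear member (points), library labelled CKO over control, by complex in alveolar nuclei with a mitochondrial share under 20% (left) and of any share (right); red bars are medians of the complex and the dashed line is the median of all genes. Under the limit the medians of all 4 complexes lie above the gene median of 0.45, and without it they lie below the gene median of 0.54.

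Complex I, the NADH dehydrogenase, had 774 CPM in control and 1168 CPM in the library labelled CKO (log2 ratio 0.59), with 20 of 36 genes at least 1.5-fold higher. Ndufa6, an accessory subunit, went from 17.5 CPM in control to 36.7 CPM (log2 ratio 1.07, 95% interval 0.74 to 1.41). The accessory subunit Ndufa2 had 35.7 and 71.6 CPM (1.00, 0.77 to 1.24). At the other end stood Ndufa13, an accessory subunit also known as GRIM-19, with 36.0 CPM in control and 32.9 CPM in the library labelled CKO (-0.13, -0.41 to 0.14). Ndufs7, a core subunit that carries an iron-sulfur cluster next to the ubiquinone site, had 16.9 and 17.9 CPM (0.08, -0.30 to 0.48). The counts behind these last genes could not tell the libraries apart. Of the other core subunits, Ndufs1 had 29.1 and 55.2 CPM (0.92) and the NADH-binding Ndufv1 8.76 and 12.3 CPM (0.49). Core and accessory subunits thus lay over a like range of ratios. Ndufa4, which carries a complex I name but is now counted to complex IV, had 46.4 and 64.9 CPM (0.48).

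Complex III, which hands electrons from ubiquinol to cytochrome c, had 211 and 329 CPM (log2 ratio 0.64). Its 8 genes spread more widely than those of complex IV. Uqcrfs1, the Rieske iron-sulfur subunit, had 7.27 CPM in control and 20.7 CPM in the library labelled CKO (1.51, 95% interval 1.02 to 2.03), which was the highest ratio among the 71 members, on 44 and 145 UMIs. The core protein Uqcrc1 had 13.7 and 28.5 CPM (1.05, 0.68 to 1.44), and its partner Uqcrc2 26.8 and 46.3 CPM (0.79). The small subunits Uqcr11, with 32.9 and 41.5 CPM (0.33, 0.07 to 0.60), and Uqcrb, with 21.98 and 22.5 CPM (0.03, -0.31 to 0.37), were the least different.

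Complex IV, cytochrome c oxidase, had 371 and 584 CPM (log2 ratio 0.65). All 10 of its genes with enough UMIs had ratios between 0.29, for Cox7a2 (53.5 and 65.3 CPM), and 0.90, for Cox7c (41.8 and 78.1 CPM). Cox5a, which stands with Cox7c at the upper end, had 26.3 and 48.0 CPM (0.87), whereas Cox5b had 19.99 and 24.9 CPM (0.32, 95% interval -0.03 to 0.66). Several subunits exist as isoforms of different tissues. The broadly expressed Cox6a1 had 40.8 and 68.9 CPM and Cox8a 53.7 and 80.4 CPM. Of their counterparts of heart and skeletal muscle, Cox7a1 had 1 and 7 UMIs and Cox8b 0 in both. Cox6a2 was detected, with 47 UMIs in each library (7.77 and 6.72 CPM), and without the mitochondrial limit it had 12.2 and 9.16 CPM (log2 ratio -0.41, 95% interval -0.76 to -0.08). The testis isoforms Cox7b2 and Cox8c had 0 and 3 UMIs and 0 in both. The third testis isoform, Cox6b2, was different: it had 19.3 CPM in control and 32.3 CPM in the library labelled CKO (117 and 226 UMIs), beside 30.1 and 49.9 CPM for the broadly expressed Cox6b1.

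Complex V, the ATP synthase, had 564 and 943 CPM (log2 ratio 0.74). Atp5g3 had 22.1 CPM in control and 57.8 CPM in the library labelled CKO (1.38, 95% interval 1.10 to 1.68), while Atp5g1 had 15.2 and 22.7 CPM (0.58) and Atp5g2 33.1 and 45.04 CPM (0.45). These genes encode the same mature subunit c of the rotating ring with different import sequences, and the interval of Atp5g3 did not overlap that of Atp5g2 (0.19 to 0.71). Atp5f1, the stalk subunit b now named Atp5pb, had 50.6 and 111.5 CPM (1.14, 0.95 to 1.34), and the catalytic subunit Atp5b had 37.0 and 74.5 CPM (1.01). The stalk subunit Atp5h had 39.7 and 45.9 CPM (0.21, -0.04 to 0.46). Atp5s, now named Dmac2l and not a subunit of the enzyme, had 7.77 and 10.2 CPM (0.39). Atp5o, which encodes the subunit that joins the stalk to the catalytic head, appears under 2 identifiers, with higher values in the library labelled CKO for each: ENSMUSG00000022956 with 20.3 and 33.2 CPM and ENSMUSG00000116933 with 5.29 and 12.7 CPM. How reads were divided between these rows was not given in the sources used here, so each is uncertain.

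The complexes differed little from one another. Complex V exceeded complex I by 0.15 on the log2 scale (95% interval 0.07 to 0.23), and the intervals of the other 5 pairs included 0, such as 0.01 (-0.11 to 0.14) for complex IV against complex III. Without the mitochondrial limit, complex V exceeded complex I by 0.09 (0.04 to 0.13) and complex IV by 0.14 (0.08 to 0.19), and complex IV lay under complex III (-0.11, -0.17 to -0.04). The intervals of the remaining 3 pairs included 0.

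The size of the library difference depended on the mitochondrial share of the nuclei counted. Without the limit, alveolar nuclei numbered 6862 in control and 4297 in the library labelled CKO, and the members had 3155 and 3523 CPM, a log2 ratio of 0.16 (95% interval 0.14 to 0.18). Then 10 of 72 members were at least 1.5-fold higher and 1 was lower, where 45.5% of all genes were higher and 4.36% lower. The members' median of 0.16 lay under the gene median of 0.54, and 12 of the 72 exceeded it. Ndufa13 had 65.6 CPM in control and 40.3 CPM in the library labelled CKO (-0.70), and the core subunit Ndufs1 had 24.5 and 56.0 CPM (1.20). Relative to the gene median, the members thus lay above it under the limit and below it without the limit.

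Within bins of mitochondrial share the members were higher in the library labelled CKO in every bin. Control nuclei went from 1155 CPM at a share of 0 to 5% through 1681 CPM at 5 to 10%, 2171 CPM at 10 to 20%, 2939 CPM at 20 to 30% and 4181 CPM at 30 to 50% to 6195 CPM over 50%. Nuclei of the library labelled CKO went through the same bins from 2207 CPM to 2842, 3403, 3917, 5093 and 7628 CPM. The log2 ratio between libraries was 0.93 in the first bin, then 0.76, 0.65, 0.41, 0.28 and 0.30, beside gene medians of 0.25, 0.26, 0.43, 0.49, 0.48 and 0.07. The members' level thus climbed with the mitochondrial share in both libraries, although mt- UMIs are not part of the CPM total. The distribution over bins differed: 574 control nuclei and 678 of the other library lay under 5%, and 2461 and 683 lay between 30 and 50%. With control nuclei weighted to the shares of the library labelled CKO, the log2 ratio was 0.71 under the limit and 0.54 without it.

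**Figure D2:**
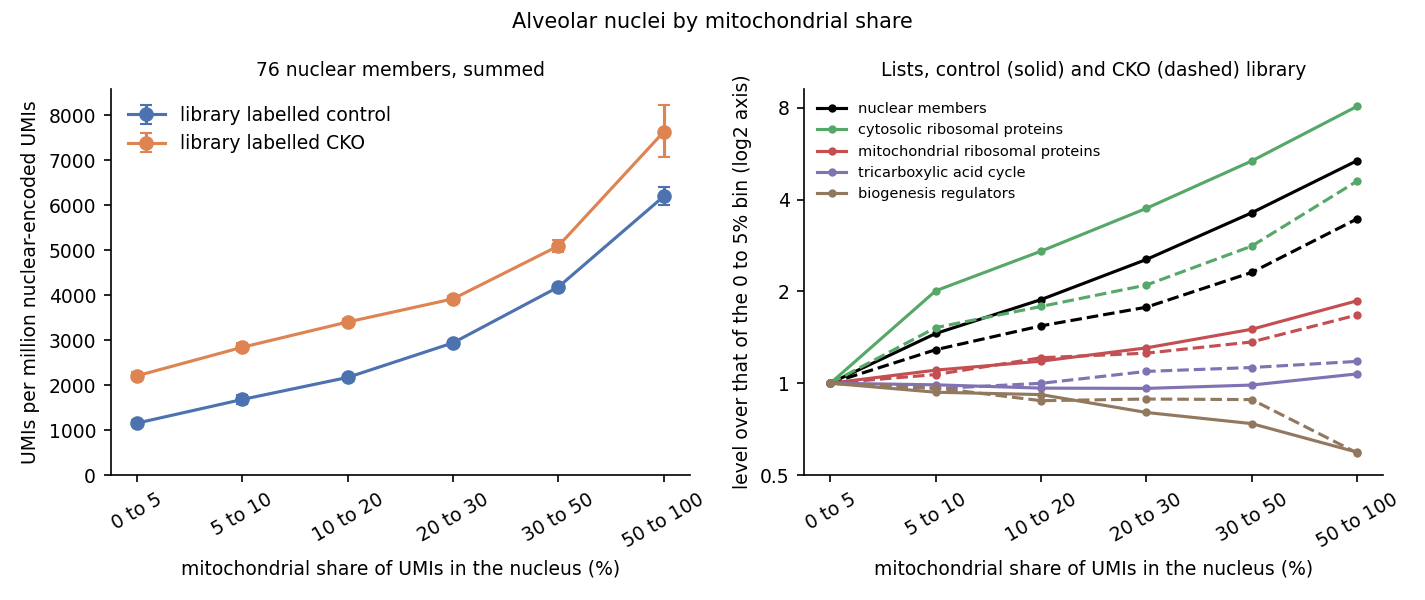
Left, summed level of the nuclear members in CPM, by the mitochondrial share of the nucleus, for alveolar nuclei of each library, with 95% Poisson intervals; right, gene lists relative to their level in the first bin, on a log2 axis. The members go from 1155 to 6195 CPM in control and from 2207 to 7628 CPM in the library labelled CKO, while the tricarboxylic acid cycle list stays near its first level.

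Nuclei with a share of 20 to 50% were then set against those under 10% within each library, in alveolar nuclei. In control the members had 1365 CPM at low share and 3552 CPM at high share, a log2 ratio of 1.38 (95% interval 1.32 to 1.44). There 62 of 71 members were at least 1.5-fold higher, against 12.5% of all genes, and 1 was lower, against 13.9%. In the library labelled CKO they had 2523 and 4258 CPM (0.75, 0.72 to 0.79), with 51 of 68 members higher, against 8.6% of all genes, and 0 lower, against 2.86%. Complexes III, IV and V had summed ratios of 1.46, 1.55 and 1.43 in control and complex I had 1.23. In the library labelled CKO these were 0.90, 0.87 and 0.74, with 0.66 for complex I.

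Single members differed in this respect. Ndufa8 had 3.72 CPM at low and 20.3 CPM at high share in control (2.45), Ndufb11 9.57 and 51.7 CPM (2.43), and the ATP synthase subunit Atp5j2 13.3 and 69.3 CPM (2.38). The low-share value of Ndufa8 rests on 7 UMIs (95% interval of the ratio 1.38 to 3.77). In the library labelled CKO these genes differed less: Ndufa8 had 14.9 and 17.1 CPM (0.20, -0.36 to 0.77), Ndufb11 30.8 and 48.5 CPM (0.65) and Atp5j2 41.07 and 64.7 CPM (0.65). Ndufs4, an accessory complex I subunit whose loss causes a fatal encephalopathy in mice, went the other way in control, from 95.1 to 58.1 CPM (-0.71), and was level in the library labelled CKO, with 88.4 and 87.6 CPM (-0.01). Its extent of 100300 bases is the greatest among members that passed. Ndufs1 had 25.0 and 22.4 CPM in control (-0.16), Ndufa9 12.2 and 13.4 CPM (0.13), Uqcrc2 22.9 and 25.3 CPM (0.15), and Atp5c1, the rotor subunit gamma, 31.9 and 36.6 CPM (0.20). The last 4 genes all extend over 20 to 100 kb. Cox6b2, with an extent of 1303 bases, was an exception among short genes, with 18.6 and 20.9 CPM (0.17).

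Gene extent went with the size of this difference over all genes and over the members. In control the median log2 ratio over all genes was 0.89 for extents under 5 kb, 0.07 for 5 to 20 kb, -0.30 for 20 to 100 kb and -0.43 beyond. The members' medians in the first 3 of these ranges were 1.59 (24 members), 1.48 (39) and 0.20 (7). In the library labelled CKO the genes had 0.62, 0.16 and -0.12 and the members 1.02 (22 members), 0.80 (38) and 0.19 (7). Across members the correlation with log10 extent was r = -0.53 over 71 genes in control and -0.55 over 68 in the library labelled CKO, where genes share their libraries and are not independent. In each of these 3 ranges the members' medians lay above those of all genes, in both libraries.

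**Figure D3:**
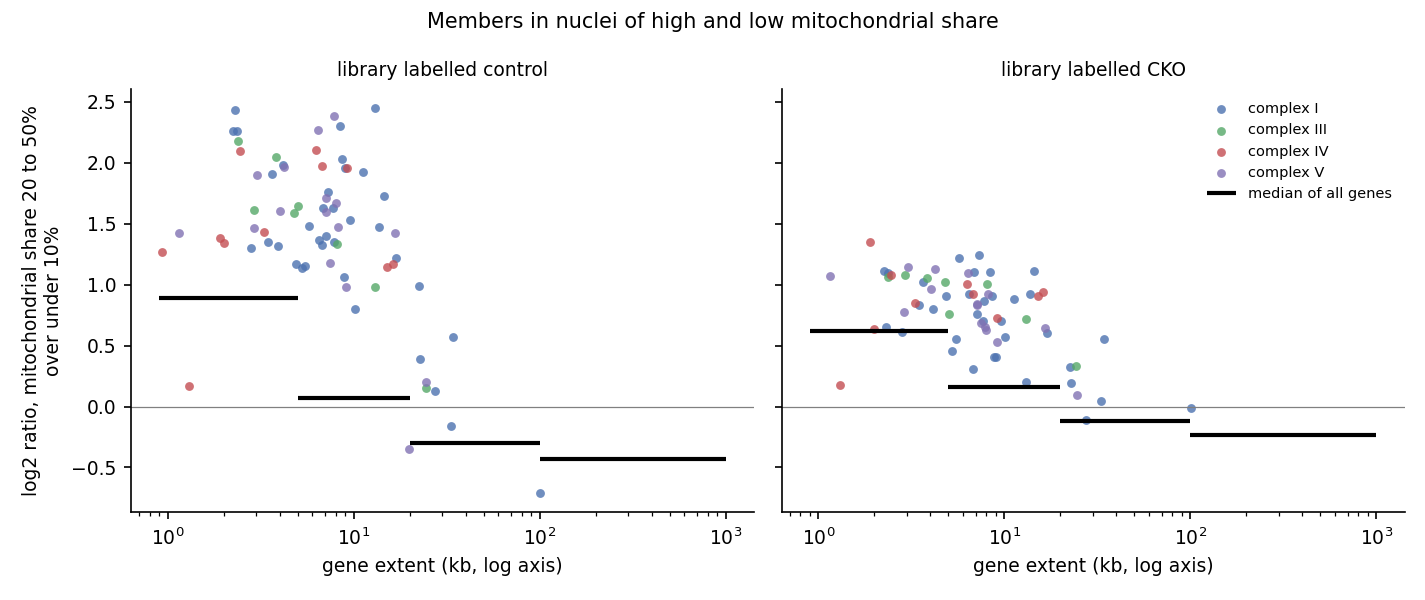
Log2 ratio of each nuclear member (points, coloured by complex) between alveolar nuclei with a mitochondrial share of 20 to 50% and under 10%, against gene extent on a log axis, in each library; black bars are medians of all genes within ranges of extent. Members under 20 kb lie mostly above the gene medians, and Ndufs4, at 100 kb, lies at -0.71 in control and -0.01 in the library labelled CKO.

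Other genes of mitochondria did not share this pattern to the same degree. Subunits left out by the name pattern had a median log2 ratio between high and low share of 1.22 in control and 0.71 in the library labelled CKO, close to the members' medians of 1.46 and 0.83. Mitochondrial ribosomal proteins had 0.68 and 0.38, import proteins 0.48 and 0.31, and complex II with its assembly factors 0.58 and 0.24. Medians of the tricarboxylic acid cycle, which feeds the chain with NADH, were -0.01 and 0.29, and those of complex I assembly factors -0.28 and -0.09. Assembly factors of complexes III to V had 0.14 and 0.04, genes of mitochondrial DNA replication and expression -0.16 and -0.05, and biogenesis regulators -0.30 and 0.00. Outside the mitochondrion, glycolysis genes had 0.40 and 0.41. The list above the members was that of cytosolic ribosomal proteins, with 1.71 and 0.87. The medians of all genes were -0.23 and -0.07. These lists were not matched to the members in gene extent, and the part of extent in their differences was not tested.

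The same lists were set between libraries in alveolar nuclei under the limit, where 39.0% of all genes were at least 1.5-fold higher in the library labelled CKO, 4.3% were lower and the gene median was 0.45. Medians were 0.75 for complex II (4 of 6 at least 1.5-fold higher in the library labelled CKO), 0.75 for complex I assembly factors (5 of 8), 0.66 for those of complexes III to V (8 of 15) and 0.52 for the tricarboxylic acid cycle (5 of 16). Import proteins had 0.76 (10 of 14), mitochondrial ribosomal proteins 0.78 (36 of 49), left-out subunits 0.94 (5 of 6), glycolysis 0.61 (7 of 14) and cytosolic ribosomal proteins 1.13 (79 of 80). The share of the tricarboxylic acid cycle list lay below that of all genes. Without the limit, where the gene median was 0.54 and 45.5% of genes were higher, left-out subunits had 0.42 (2 of 7), glycolysis 0.44 (5 of 15) and cytosolic ribosomal proteins 0.61 (42 of 80). Complex I assembly factors then had 0.78 (9 of 14), those of complexes III to V 0.59 (13 of 23), the tricarboxylic acid cycle 0.56 (8 of 16) and regulators 0.47 (4 of 9). Under the limit again, Cyc1, the cytochrome c1 subunit of complex III, had 11.9 and 30.2 CPM (1.34). The regulators stood lowest, with 0.29 (1 of 9 higher and 1 lower). Ppargc1a, a coactivator of mitochondrial genes, had 293.1 CPM in control and 97.9 CPM in the library labelled CKO (-1.58). Within classes this difference was smaller, with 358.2 and 135.2 CPM in AT2-like nuclei (-1.41). Transitional-like nuclei had 83.0 and 47.9 CPM (-0.79) and AT1-like nuclei 72.9 and 55.2 CPM (-0.40). Genes of mitochondrial DNA replication and expression had a median of 0.63 (4 of 8 higher and 1 lower); there Tfam, which packages mitochondrial DNA, had 5.29 and 10.7 CPM (1.02), and Polg2, the accessory subunit of its polymerase, had 121.9 and 26.6 CPM (-2.20).

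Among the 3 alveolar classes under the limit, the members' level varied less than between libraries. In control, members had 1868 CPM in AT2-like nuclei (95% interval 1828 to 1907), 2165 CPM in transitional-like nuclei (2074 to 2259), which express keratins of cells between AT2 and AT1, and 1933 CPM in AT1-like nuclei (1805 to 2067). In the library labelled CKO the same classes had 2903 CPM (2850 to 2957), 3256 CPM (3169 to 3346) and 3084 CPM (2996 to 3175). Transitional-like nuclei were highest of the 3 in both libraries under the limit. The intervals of AT2-like and AT1-like nuclei overlapped in control. Without the limit the order in control was the reverse: AT2-like nuclei had 3224 CPM (3198 to 3251), AT1-like 2789 CPM (2676 to 2905) and transitional-like 2664 CPM (2591 to 2738). Transitional-like nuclei stayed highest in the library labelled CKO, with 3700 CPM (3623 to 3778), beside 3525 CPM in AT2-like and 3312 CPM in AT1-like nuclei.

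Log2 ratios between libraries were 0.64 in AT2-like, 0.59 in transitional-like, 0.67 in AT1-like and 0.70 in all non-alveolar nuclei. The members at least 1.5-fold higher in the library labelled CKO numbered 42 of 66 in AT2-like nuclei (37.4% of all genes), 18 of 30 in transitional-like nuclei (19.9%), 13 of 19 in AT1-like nuclei (22.1%) and 32 of 48 in non-alveolar nuclei (36.4%). No member with at least 100 UMIs was that much lower in any of these 4 groups. Of all genes, 5.15%, 3.26%, 3.81% and 5.32% were. Below that count, Ndufa13 was lower in AT1-like nuclei (log2 ratio -0.91, interval -1.59 to -0.20, 29 and 53 UMIs). Uqcrb was lower in transitional-like nuclei (-0.76, -1.475 to -0.05, 36 and 35 UMIs). Others below it were higher, such as Ndufa5 in AT1-like nuclei (2.51, 0.56 to 5.60, 2 and 39 UMIs). Ndufa6 in transitional-like nuclei was another (1.49, 0.70 to 2.37, 16 and 74 UMIs). The nuclei classed as non-alveolar thus showed the difference too, but their makeup differed between libraries. Under the limit, control had 1 neutrophil-like, 33 macrophage or monocyte-like and 59 T or NK-like nuclei. The library labelled CKO had 435, 402 and 347 of these. The part of this makeup in the pooled ratio was not tested. Non-alveolar nuclei also held RNA of AT2 cells. The 12 AT2 markers summed to 7996 CPM in T or NK-like nuclei of control and 5999 CPM in those of the library labelled CKO, where the 13 markers of the class itself had 2407 and 3946 CPM. Macrophage or monocyte-like nuclei of the library labelled CKO had 6140 CPM of AT2 markers and 1411 CPM of their own, and neutrophil-like nuclei 8752 and 5442 CPM. How much of the members' RNA in these nuclei came from AT2 cells was not tested. Summed neutrophil markers also differed between libraries inside these classes, with 77.4 and 203 CPM in AT2-like, 15.4 and 190 CPM in transitional-like and 15.95 and 220 CPM in AT1-like nuclei, over 8 markers of which 5, 2 and 2 were detected in control and 8 in each class of the other library. In control AT2-like nuclei, Mmp9, S100a8 and Retnlg were at 0. Club cell markers, 7 in all, had 198 and 561.7 CPM in AT2-like nuclei (5 and 7 detected, Cckar and Muc5b at 0 in control). They had 183.4 and 620.1 CPM in transitional-like nuclei (4 and 7 detected) and 136.8 and 506.2 CPM in AT1-like nuclei (3 and 6 detected). AT2 markers, all 12 detected, went from 2384 to 4252 CPM in transitional-like and from 4166 to 7541 CPM in AT1-like nuclei. The 14 transitional markers had 2999 and 3185 CPM in transitional-like nuclei. The 14 AT1 markers had 6163 and 5625 CPM in AT1-like nuclei (13 and 14 detected). In both classes AT2 markers thus summed above the markers of the class itself in the library labelled CKO, and below them in control. The part of these lists in the members' difference was not tested.

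**Figure D4:**
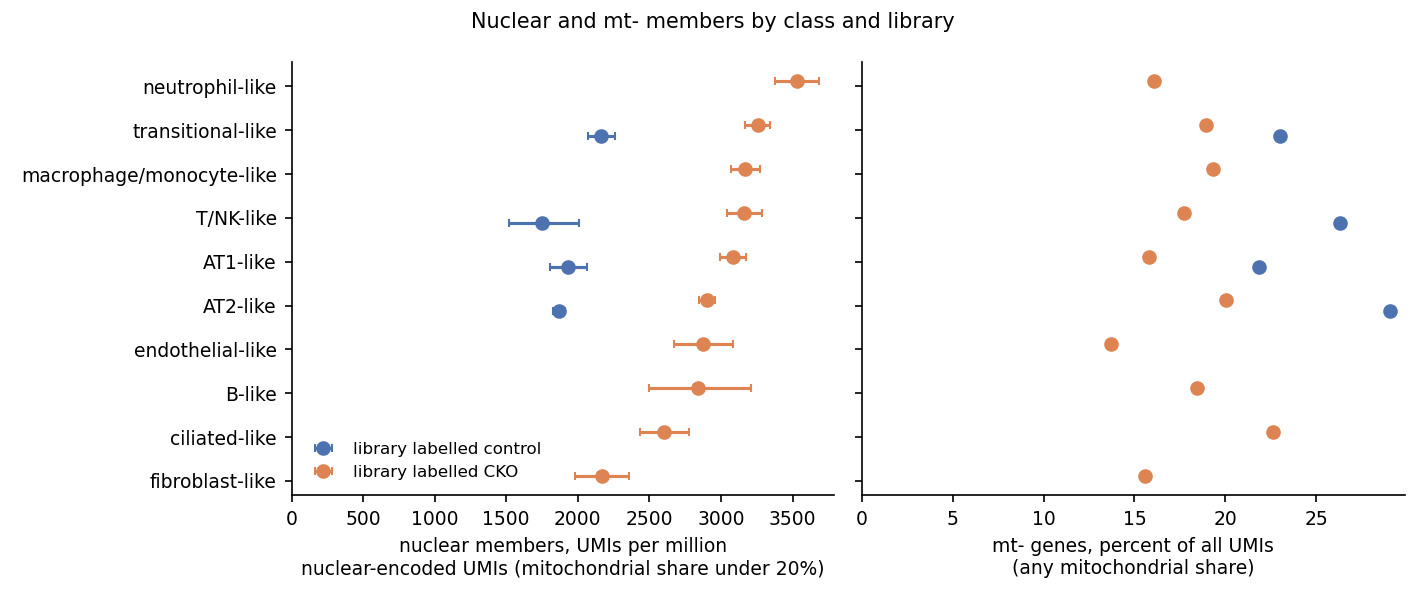
Left, summed level of the nuclear members by class and library in nuclei with a mitochondrial share under 20%, with 95% Poisson intervals; right, mt- genes as percent of all UMIs in nuclei of any share, with intervals narrower than the points. Classes of at least 50 nuclei are shown. Within each class measured in both libraries, the summed nuclear members are higher and the summed mt- genes lower in the library labelled CKO.

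The library labelled CKO held enough nuclei to rank 10 classes. Neutrophil-like nuclei had 3530 CPM (95% interval 3380 to 3684), followed by transitional-like nuclei, then macrophage or monocyte-like with 3171 CPM (3069 to 3276), T or NK-like with 3162 CPM (3039 to 3288) and AT1-like nuclei. The intervals of neighbours from transitional-like to AT1-like nuclei overlapped. AT2-like nuclei came next, then endothelial-like with 2873 CPM (2671 to 3086), B-like with 2839 CPM (2498 to 3213) and ciliated-like nuclei with 2602 CPM (2436 to 2778). The ciliated-like class also held club cell RNA. Its 7 club markers (5 detected) summed to 12097 CPM, above the 8453 CPM of its 9 ciliated markers, so its name covers both kinds. Fibroblast-like nuclei were lowest with 2166 CPM (1983 to 2360), and their interval overlapped none of the others. Neutrophil-like nuclei had a median of 864 UMIs and fibroblast-like nuclei 4977, so depth differed between the ends of this order. It did not follow the order between them, with 3795 in AT1-like, 1718 in endothelial-like and 1386 in B-like nuclei. AT2 marker RNA also differed between the ends, with 8752 CPM in neutrophil-like and 3088 CPM in fibroblast-like nuclei. It was 17221 CPM in AT2-like nuclei, in the middle of the order.

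Single members seldom marked a class. From AT2-like to AT1-like nuclei the summed log2 ratio was 0.05 in control and 0.09 in the library labelled CKO, and the direction was not stable, since without the mitochondrial limit the mean of both was -0.15. In control 8 of 69 members were at least 1.5-fold higher in AT1-like nuclei (26.7% of all genes) and 12 lower (17.9%). In the library labelled CKO 3 were higher (13.7%) and 0 lower (11.2%). Cox5a had 22.9 CPM in AT2-like and 41.0 CPM in AT1-like nuclei of control, and 43.0 and 57.9 CPM in the other library. Ndufa13 had 33.6 and 66.1 CPM, then 30.9 and 35.3 CPM. At the lower end, the accessory subunit Ndufb5 had 19.0 and 4.56 CPM in control and 29.9 and 22.6 CPM in the library labelled CKO, on 2 UMIs in control AT1-like nuclei. Ndufv1 had 0 UMIs in control AT1-like nuclei and 8.41 CPM in AT2-like nuclei, with 11.97 CPM in AT1-like and 11.1 CPM in AT2-like nuclei of the library labelled CKO. These AT1-like values rest on 123 control nuclei.

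From AT2-like to transitional-like nuclei the summed log2 ratios were 0.21 and 0.17 under the limit; without it the levels given above lay the other way in control. In control 15 of 70 members were higher by 1.5-fold (35.4% of all genes) and 4 lower (13.6%), and in the library labelled CKO 3 were higher (25.2%) and 0 lower (10.9%). The highest ratio in the library labelled CKO was that of the testis isoform Cox6b2, with 26.8 CPM in AT2-like and 56.0 CPM in transitional-like nuclei (1.06, 95% interval 0.64 to 1.49). Atp5e, subunit epsilon of the ATP synthase, lay the other way in both libraries, with 58.9 and 34.8 CPM in control (-0.76) and 80.1 and 65.3 CPM in the library labelled CKO (-0.29, -0.63 to 0.03).

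The mt- genes differed between libraries in the opposite direction to the nuclear members. In alveolar nuclei without the limit they made up 28.3% of all UMIs in control and 19.1% in the library labelled CKO, a log2 ratio of -0.57. The share was 29.1% and 20.02% in AT2-like, 23.0% and 18.9% in transitional-like and 21.8% and 15.8% in AT1-like nuclei. It was 31.9% and 19.3% in macrophage or monocyte-like and 26.3% and 17.8% in T or NK-like nuclei, so these leukocyte classes had the same order. How much of the mt- RNA in these leukocyte classes came from AT2 cells was not tested. B-like nuclei, only 13 of them in control, had 17.2% (95% interval 16.6 to 17.9) and 18.4% (18.2 to 18.6), the other way round. With the limit of 20% the log2 ratio in alveolar nuclei was -0.19, and with a limit of 10% it was 0.26, since such limits remove the nuclei richest in mt- RNA.

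In alveolar nuclei without the limit, mt- UMIs were set against UMIs of nuclear members of the same complex. These ratios were 94.8 in control and 49.6 in the library labelled CKO for complex I, with 7 mt- genes. They were 103.9 and 47.5 for complex III, with mt-Cytb as its only mt- gene, 257.1 and 145.0 for complex IV, with 3, and 80.1 and 45.5 for complex V, with 2. In both libraries complex IV had the highest ratio and complex V the lowest, and all 4 ratios were lower in the library labelled CKO. The same held under the limit, where the ratios were smaller. They were then 54.4 and 29.8 for complex I, 62.4 and 29.5 for complex III, 164.9 and 90.8 for complex IV and 48.5 and 28.0 for complex V.

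The makeup of the mt- UMIs also differed between the libraries. In alveolar nuclei mt-Atp8, a small subunit of the ATP synthase, took 0.286% of mt- UMIs in control (23360 UMIs) and 0.930% in the library labelled CKO (24875 UMIs), a log2 ratio of shares of 1.70 (95% interval 1.68 to 1.73). mt-Nd3 took 2.62% and 4.44% (0.76), mt-Nd6 0.0938% and 0.147% (0.65) and mt-Co1, the catalytic subunit of complex IV, 7.23% and 9.60% (0.41). These 4 genes and mt-Atp6 took a greater share in the library labelled CKO in 5 of 5 classes and 6 of 6 bins of mitochondrial share.

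Lower shares in the library labelled CKO were found for mt-Nd1, with 8.10% and 6.08% (-0.41), mt-Cytb, with 9.05% and 7.93% (-0.19), mt-Nd2, with 7.79% and 6.85% (-0.19), mt-Nd5, with 2.38% and 2.13% (-0.16), and mt-Co3, with 19.3% and 17.5% (-0.15). Those 5 were lower in all 5 classes and all 6 bins. mt-Co2 (16.1% and 15.7%) and mt-Nd4 (7.55% and 7.74%) were closest between libraries. For mt-Atp8 the log2 ratio lay between 1.6 and 1.77 over the 5 classes, with 1.75 in T or NK-like nuclei. Over the bins of mitochondrial share it lay between 1.53 and 1.72. It thus varied little over these classes and bins. The leukocyte-like classes also held AT2 marker RNA, and how much of their mt- RNA came from AT2 cells was not tested.

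**Figure D5:**
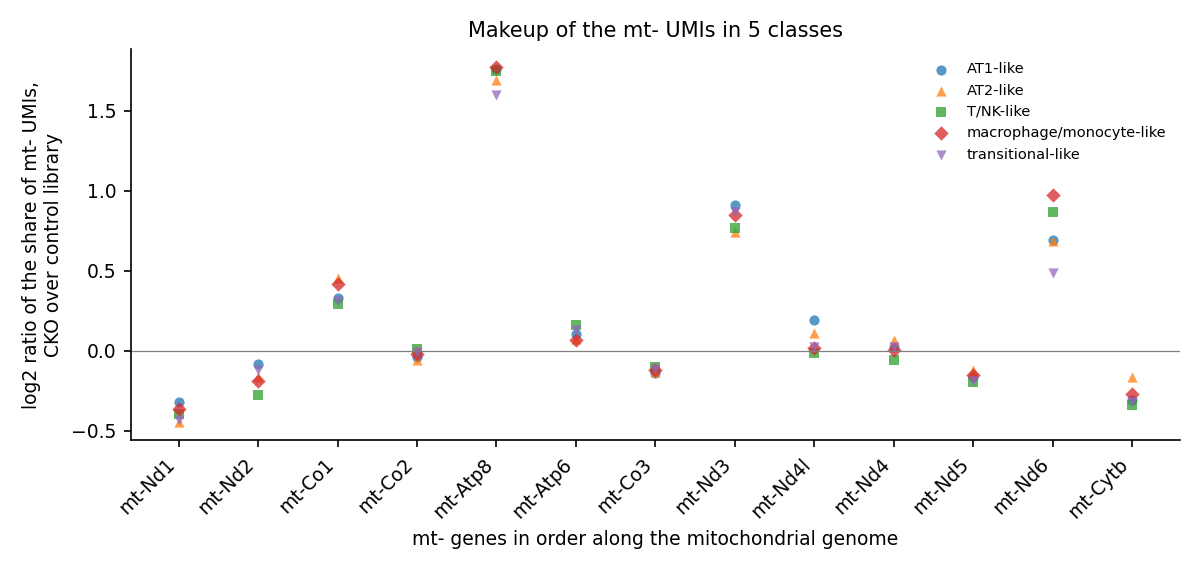
Log2 ratio of each mt- gene's share of mt- UMIs, library labelled CKO over control, in 5 classes (symbols), with genes in order along the mitochondrial genome and no limit on the mitochondrial share. mt-Atp8 lies between 1.6 and 1.77 in all 5 classes, followed by mt-Nd3 and mt-Nd6, and mt-Nd1 lies lowest.

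Positions on the mitochondrial genome bear on how these reads can be assigned. mt-Atp8 (MT:7766-7969) overlaps mt-Atp6 (MT:7927-8607), mt-Nd4l (MT:9877-10173) overlaps mt-Nd4 (MT:10167-11544), and mt-Nd5 (MT:11742-13565) overlaps mt-Nd6 (MT:13552-14070), which lies on the other strand. mt-Atp8 and mt-Nd4l are the shortest mt- genes, with 204 and 297 bases. How reads in shared stretches were counted was not given in the sources used here, and the part of read assignment in the difference of mt-Atp8 was not tested.

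Chromatin data of the same nuclei held mitochondrial DNA signal in 1 main peak of each library, over mt-Nd4 (MT:10919-11677 in control, MT:10966-11678 in the library labelled CKO). In alveolar nuclei of any share it had 3331 CPM of all peak counts in control (95% interval 3313 to 3349) and 389 in the library labelled CKO (381 to 397). It was higher in control in each of the 6 bins of mitochondrial share, from 471 and 97.3 under 5% to 3295 and 457 over 50%. T or NK-like nuclei had 1729 and 227 CPM of peak counts. The peaks were called separately in each library and differ in extent.

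Summed chromatin signal at the promoters of the nuclear members was level between the libraries in alveolar nuclei. Of the 76 members, 72 had a peak region shared by both libraries within 1000 bases of the start. Summed, these had 2885 and 2888 CPM of peak counts in alveolar nuclei under the limit, scaled here to counts in regions shared by both libraries. The log2 ratio was 0.00 (95% interval -0.02 to 0.02), where the RNA of the members had 0.65. The median log2 ratio of promoter peaks was 0.05 over the members and -0.10 over all genes, beside 0.66 and 0.45 for RNA. By complex, the summed ratio was 0.00 for complex I, -0.04 for complexes III and V, with intervals that included 0, and 0.13 (0.06 to 0.20) for complex IV. In AT1-like nuclei the members' sum was higher in the library labelled CKO, with 2610 and 2824 CPM of peak counts (0.11, 0.03 to 0.20). At least 1.5-fold more was found at 4 of 71 promoters in the library labelled CKO (4.18% of all genes) and less at 2 (6.8%). The Ndufs4 promoter had 9.01 and 15.7 CPM of peak counts (0.80), Uqcr10 22.1 and 37.8 (0.77), Uqcrc1 22.5 and 35.8 (0.67) and Cox7b 5.97 and 8.997 (0.59). The muscle isoform Cox7a1, with hardly any RNA, had 25.2 and 16.4 (-0.62), and Cox6b2 had 34.0 and 22.4 (-0.60) although its RNA lay the other way.

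RefSeq promoter sequences (build GRCm38.p6, 250 bases before to 50 after the start) were found for 64 members, as 69 promoters. Fixed letter strings bound by known regulators of these genes were searched on both strands. The NRF1 string, printed in capitals in the sequences below, was in 5 promoters (7.25%, against 1.33% of 21262 promoters of coding genes) and the YY1 string AAGATGGC in 10 (14.5%, against 3.05%). The ETS string CCGGAAGT, the letters to which GABP binds, was in 5 (7.25%, against 5.15%), and the ESRRA string AAGGTCA in 7 (10.1%, against 4.08%). The SP1 string GGGCGG was in 37.7% of member promoters and 46.2% of coding ones, and TATAAA in 11.6% and 12.6%. A promoter window of a gene on the opposite strand overlapped 28.99% of member promoters, against 11.4%. Short strings match by letters alone, and these counts are descriptions.

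The 5 NRF1 matches are shown because they cross complexes I, III, IV and V and include Uqcrc1, which had high ratios in both RNA and promoter peaks. Each line gives 30 bases 5′ to 3′ on the gene's strand with the matching letters in capitals. Counted from the start, the match begins at -162 in Cox6a1 (minus strand, chr5:115349101-115349130), -60 in Ndufa11 (plus strand, chr17:56717692-56717721), -50 in Atp5k (minus strand, chr5:108434430-108434459), -42 in Atp5g2 (minus strand, chr15:102671070-102671099), and at 31 in Uqcrc1 (plus strand, chr9:108936668-108936697).
Cox6a1: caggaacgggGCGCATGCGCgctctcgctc
Ndufa11: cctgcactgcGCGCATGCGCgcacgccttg
Atp5k: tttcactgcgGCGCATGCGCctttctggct
Atp5g2: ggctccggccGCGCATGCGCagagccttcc
Uqcrc1: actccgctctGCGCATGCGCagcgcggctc

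The YY1 matches are shown because 8 of the 10 lie on the gene strand at a like distance after the start, from base 23 to base 39. They belong to Ndufa3 (plus strand, chr7:3617384-3617413), Ndufc1 (minus strand, chr3:51408915-51408944), Atp5j2 (minus strand, chr5:145191500-145191529), Ndufs7 (plus strand, chr10:80249462-80249491), Ndufa9 (minus strand, chr6:126849097-126849126), Ndufs6 (minus strand, chr13:73328433-73328462), Ndufs4 (minus strand, chr13:114388045-114388074) and Ndufb8 (minus strand, chr19:44555393-44555422). Distances were counted from the start of the promoter that held the match. For Ndufs7 and Ndufa3 this start lies inside the gene's extent, which begins at chr10:80249105 and chr7:3617347. Capitals again mark the match, whose letters include ATG. Whether this is a start codon was not analysed here.
Ndufa3: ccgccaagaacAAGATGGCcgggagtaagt
Ndufc1: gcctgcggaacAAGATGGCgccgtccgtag
Atp5j2: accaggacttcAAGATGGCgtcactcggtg
Ndufs7: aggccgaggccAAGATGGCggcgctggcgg
Ndufa9: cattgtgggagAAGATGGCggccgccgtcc
Ndufs6: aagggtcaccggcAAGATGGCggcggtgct
Ndufs4: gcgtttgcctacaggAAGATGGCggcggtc
Ndufb8: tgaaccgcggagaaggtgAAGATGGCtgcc

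The genes that carry the YY1 string had unequal ratios between libraries. Under the limit Ndufs7 had a log2 ratio of 0.08, Ndufs4 0.41, Ndufc1 0.55, Atp5j2 0.68, Ndufa3 0.71, Ndufb8 0.85, Ndufs6 0.87 and Ndufa9 0.89. The remaining 2, whose matches begin before the start at -88 and -3 and are not printed, were Atp5j with 0.64 and Atp5f1 with 1.14. Those with the NRF1 string had 0.14 for Ndufa11, 0.45 for Atp5g2, 0.76 for Cox6a1, 0.94 for Atp5k and 1.05 for Uqcrc1. Over all members that passed, ratios ran from -0.13 to 1.51.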

How the data were processed

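Joint RNA and chromatin libraries of 2 genotypes (4 samples, 1 RNA and 1 chromatin part per library) were used as deposited: whole-number counts of UMIs per gene and of transposition events per peak, with no normalisation by the authors. Per the submitters' processing notes, Cell Ranger ARC 2.0.1, Seurat 4.1.0 and Signac 1.6.0 and the builds GRCm39 and GRCm38 were listed without saying what each was used for. The gene coordinates deposited matched GRCm38, the build used here, counted from 1.

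Nuclei needed 500 to 25000 UMIs, 300 genes and 1000 to 100000 peak counts, and for the nuclear members a mitochondrial share under 20%. For mt- genes no such limit was set. Median depth of kept nuclei was 2093 UMIs in control and 2402 in the library labelled CKO. Both libraries were clustered together without member and mt- genes in scanpy 1.11.5 (2000 variable genes, 30 components, 15 neighbours, Leiden resolution 0.6, leidenalg 0.10.2, igraph 0.11.9). Clusters took an "X-like" name from marker lists (score at least 0.3, at least 3 detected markers). Nuclei over the limit were classed by their 15 nearest neighbours (scikit-learn 1.9.0), with at least 200 nuclear-encoded UMIs. No doublet caller was run; an alternative left out nuclei with leukocyte and AT2 markers together (97 control, 234 of the library labelled CKO).

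For each class and library, summed UMIs were scaled to CPM over nuclear-encoded genes. Intervals (95%, scipy 1.17.1) were exact conditional-binomial for log2 ratios, Poisson for levels and Clopper-Pearson for shares. Genes with at least 100 UMIs over both libraries were counted past 1.5-fold, with no test. Named are the 2 highest and 2 lowest members per complex by library, and 2 and 2 for AT1-like over AT2-like; other named genes were chosen after their values were seen. Members and lists were chosen with earlier results of these data known. On simulated counts for 9403 genes in alveolar nuclei, 100% of 200 changed genes had the right direction and 95.9% of intervals held the true value. The results listed in the closing section were recomputed under other filters, scalings and class definitions (76 listed at the outset and 4 chosen after seeing the data). Single-gene ratios, gene lists, shares of single mt- genes, ratios between high and low mitochondrial share and motif counts were not. For these, only the settings printed with them were run. Of the members, 23 overlap another gene, and how reads of overlapping genes or near-identical copies were assigned was not given in the sources used here.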

Additional observations from a re-analysis of the deposited data

How the results depend on the processing

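No paired analysis was possible because each genotype had 1 library. The log2 ratio of the nuclear members between libraries stayed above 0 under every alternative run, in alveolar nuclei and in each class, but its size moved. In alveolar, AT2-like, transitional-like and AT1-like nuclei in turn it was 0.65, 0.64, 0.59 and 0.67 as reported and 0.16, 0.13, 0.47 and 0.25 with no mitochondrial limit. With median-of-ratios scaling it was 0.21, 0.21, 0.37 and 0.49. A limit of 10% gave 0.89, 0.96 and, in AT1-like nuclei, 0.82. A limit of 5% gave 0.93, 1.01 and 0.82 in the first 3, no depth filter 0.79, 0.74 and 0.82, UMIs without Gm42418 and AY036118 0.52, 0.49 and 0.47, clustering without the limit 0.82, 0.99 and 0.70, and classes from each nucleus's own markers 0.59, 0.40 and 0.86. In alveolar and AT2-like nuclei, the mean of per-nucleus CPM gave 0.74 and 0.78, thinning to 1000 UMIs (399 control and 219 other nuclei too shallow) 0.69 and 0.73, and weighting control to the mitochondrial bins 0.71 and 0.73. Weighting without the limit, added after seeing the data, gave 0.54, 0.52 and, in AT1-like nuclei, 0.49. A Leiden resolution of 1.0 gave 0.56 in AT1-like nuclei.

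The 43 members past 1.5-fold became 10 with no limit, 10 of the 12 that passed at a 5% limit, 6 with median-of-ratios scaling and 24 of 42 when thinned. Complex IV minus complex III, 0.01 as reported, was 0.31 at a 5% limit and -0.11 (-0.17 to -0.04) with no limit. AT1-like over AT2-like, 0.07 over both libraries, was reversed to -0.15 with no limit and -0.10 with own markers, and was 0.20 at a 10% limit. For mt- genes in alveolar nuclei (-0.57) a limit of 20% gave -0.19 and of 10% the reversed 0.26, own markers -0.64, no depth filter -0.49, per-nucleus shares -0.49, thinning -0.51, control weighted to the class makeup -0.48, clustering without the limit -0.53 and with member genes -0.56, at least 1000 UMIs -0.57, without mixed nuclei -0.57, and, added later, without the shallow AT2-like cluster -0.53 and without shared barcodes -0.57. Promoter peaks lay between 0.00 and 0.02. The causes were not tested. AT1-like nuclei gave no value at a 5% limit or when clustered without the limit. Gene-level ratios rest on few UMIs in AT1-like control nuclei, and no value speaks of variation between mice.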
